A study of Mus musculus with 4 samples.

Results

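The 9 genes described here, Shh, Ptch1, Smo, Gli1, Gli2, Gli3, Hhip, Boc and Gas1, encode the ligand, receptors, coreceptors, transcription factors and a secreted-ligand inhibitor of the Hedgehog pathway. They were taken by symbol from the 32285 genes counted in each of 4 single-cell RNA-seq libraries, and all 9 were found. Cells came from mouse embryos at E9.5, from the pharyngeal region beginning at pharyngeal arch 1 together with the heart, and were sorted for GFP that marks the Tbx1Cre lineage. The conditional heterozygote (cHet) carried Tbx1Cre/+; Kmt2d F/+; GFP F/+ and the conditional knockout (cKO) carried Tbx1Cre/+; Kmt2d F/F; GFP F/+, both labelled as outbred SwissWebster, whereas the study's methods describe a mixed background of Swiss Webster and C57BL/6. Kmt2d encodes a histone H3 lysine methyltransferase that acts at enhancers. Each genotype had 2 libraries, Rep1 from 4 pooled embryos made with a Next GEM kit and Rep2 from 3 pooled embryos made with a GEM-X kit. Cre was inserted in Tbx1 itself, so that every embryo was also heterozygous for Tbx1, and no Tbx1 wild-type embryo was among these libraries. The sort aimed to keep only cells that had expressed the Cre, so that ligand made by cells outside the Tbx1 lineage was not meant to be sampled. The purity of the sort was not tested. Embryos were pooled, so the spread between Rep1 and Rep2 covers pools and kits and not single embryos.

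Hedgehog ligands are secreted lipid-modified proteins. In their absence the receptor PTCH1 keeps the membrane protein SMO inactive and GLI3 is processed to a repressor. Ligand binding, helped by the coreceptors BOC, GAS1 and CDON, releases SMO and lets GLI2 and GLI1 activate transcription. Ptch1, Gli1 and Hhip are themselves transcribed in response, and their RNA is widely used to recognise responding cells. In the pharyngeal arches and the foregut, the endoderm is a known source of Shh for the adjoining mesenchyme and the second heart field.

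The libraries held between 179454146 and 234726019 UMIs (unique molecular identifiers, each a counted RNA molecule), and 33448 cells were kept. The cHet Rep1 library stood apart, with 37093 barcodes, more than any other library, and only 60.0% of its UMIs in kept cells, against 86.1% to 91.6% in the others. Kept cells shared 12 barcodes between the 2 Rep1 libraries and 41 between the 2 Rep2 libraries. Levels are given as CPM, a gene's UMIs scaled to an equal total of UMIs in every group and library, and since 3′ UMI counts depend on how well each transcript end is captured, levels were compared between cells and not between genes. Levels also differed between Rep1 and Rep2, for which kit and embryo pool cannot be told apart. Summed over all kept cells, Ptch1 CPM was 1.73-fold (cHet) and 1.70-fold (cKO) higher in Rep2 than in Rep1. Hhip CPM was 1.80-fold and 2.01-fold higher. Kmt2d itself was counted at 17.4 and 15.2 CPM in Rep1 and 23.9 and 21.0 CPM in Rep2 (cHet and cKO) in all kept cells. It differed between genotypes by -0.16 ± 0.07 (log2 fold change ± SE, adjusted p = 0.956), but UMIs counted at the 3′ end of the transcript do not check the removal of the floxed exons. By RT-qPCR the study found Kmt2d significantly depleted in cKO embryos at E9.5, against Tbx1Cre/+ embryos and not cHet. In its single-cell data the study saw no noteworthy change of Kmt2d.

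Cells fell into 21 groups, clustered without the Hedgehog genes. A group is called X-like where at least 3 fixed markers of X passed the naming rule, and unnamed groups are called by 2 of their leading genes. The groups share the same 4 libraries and are not independent of each other. The pharyngeal endoderm-like group passed for 6 of its 7 markers (Pax9, Pax1, Foxi3, Foxa1, Foxa2 and Nkx2-3) and the posterior second heart field (pSHF)-like group for 7 of 7. The mesenchyme-like (Adamtsl1 Tagln) group passed for only 3 of 8 mesenchyme markers (Tbx18, Foxc1 and Foxc2), and its leading genes also included Foxl1, Foxf2 and Myl9, so the name is a weak one. The naming markers Foxa2 (endoderm), Foxf1 (pSHF) and Foxc2 (mesenchyme) belong to the wider Hedgehog list that was left out of the clustering.

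On GRCm38 (GENCODE M21) Shh lies at chr5:28456815-28467256, Ptch1 at chr13:63508328-63573598, Smo at chr6:29735503-29761365 and Hhip at chr8:79965851-80058006. Gli1 is at chr10:127329882-127341974, Gli2 at chr1:118834132-119053619, Gli3 at chr13:15463235-15730026, Boc at chr16:44485049-44558897 and Gas1 at chr13:60174405-60177365. The 250 bases before the RefSeq transcription start (GRCm38.p6, minus strand, 5′ to 3′) of Ptch1, chr13:63565736-63565985, and of Hhip, chr8:80058009-80058258, are shown because these pathway-responsive genes were highest in the same 2 cell groups. The Ptch1 window lies in an intron of longer GENCODE transcripts of the gene.
Ptch1: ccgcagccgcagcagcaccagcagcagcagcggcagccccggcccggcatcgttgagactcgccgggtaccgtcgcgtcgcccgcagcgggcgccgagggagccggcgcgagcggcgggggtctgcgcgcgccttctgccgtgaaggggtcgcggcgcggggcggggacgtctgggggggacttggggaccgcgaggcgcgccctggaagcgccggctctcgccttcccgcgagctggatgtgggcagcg
Hhip: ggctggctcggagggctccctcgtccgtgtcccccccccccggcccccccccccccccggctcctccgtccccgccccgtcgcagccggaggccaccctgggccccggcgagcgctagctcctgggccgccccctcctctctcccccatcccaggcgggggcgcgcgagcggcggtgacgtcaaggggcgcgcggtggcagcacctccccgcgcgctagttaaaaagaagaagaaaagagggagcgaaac
Both windows were rich in G and C, at 78.4% for Ptch1 and 76.0% for Hhip, against a median of 52.4% over 32851 promoter windows. The known GLI consensus GACCACCCA, read on both strands (TGGGTGGTC on the other), was in 0 of the 6 windows of members that matched (Ptch1, Hhip, Smo, Gli2, Gli3 and Gas1) and in 0.253% of all windows, each of 250 bases before and 50 after the start. Shh, Gli1 and Boc did not match. The lack of these letters in a short window says nothing of GLI binding elsewhere.

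The ligand was counted mostly in the endoderm. Of 460 Shh UMIs in kept cells, 323 (70.2%) lay in the pharyngeal endoderm-like group, which held 1.95% of the cells. Its Shh level was 9.0 CPM in cHet Rep1, 17.6 in cKO Rep1, 18.7 in cHet Rep2 and 31.3 in cKO Rep2, the highest of the 21 groups in each library. A Shh UMI was found in 10 of 87, 8 of 65, 44 of 186 and 73 of 314 of these cells in the same order, that is 11.5%, 12.3%, 23.7% and 23.2%. Pooled, the share was 20.7% (95% Wilson interval 17.8% to 24.0%, counting error only). In the 2 endothelium-like groups together, which should lack the gene, it was 0 of 1915 cells, which allows a share of up to 0.157%. The endoderm-like median depths ran from 19517 to 23037 UMIs per cell and those of the 2 endothelium-like groups from 15228 to 27359. With each cell thinned to 5000 UMIs, the 4 shares were 3.45%, 6.15%, 8.06% and 11.5%, and the lower shares of the Rep1 libraries remained below those of Rep2.

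Shh was less even outside the endoderm. Neuronal-like cells held 12, 15, 38 and 0 Shh UMIs, or 1.9, 2.0, 9.2 and 0.0 CPM, with cKO Rep2 alone at 0. In the unnamed (Zic1 Ptchd4) group the counts were 44, 1, 0 and 0 UMIs, and 41 of the 44 were in 1 cell, which also held T and Foxa1. All the remaining groups together had a Shh UMI in 19 of 29313 cells, or 0.0648%. The endoderm-like group therefore held only 18.0% of the Shh UMIs of cHet Rep1, against 60.9% in cKO Rep1, 66.4% in cHet Rep2 and 97.5% in cKO Rep2. Among the 10 cells outside the endoderm-like group with 3 or more Shh UMIs, 9 held Sox2 and 8 held Foxa2, a forkhead gene of endoderm, notochord and floor plate. Of the neural tube genes, 5 held Nkx6-1 and 2 held Sox1, and none held Olig2 or Pax6. Of the notochord list, 1 held T and 6 held Slc2a1, and none held Noto or Chrd. Of the other endoderm markers, 5 held Foxa1 and 1 held Pax9, and none held Pax1, Foxi3, Nkx2-3 or Hhex. Among the 35 such cells inside the group 33 held Sox2 and 19 held Foxa2, but only 1 held Nkx6-1. In these 35 cells, 26 held Slc2a1, 23 Foxa1, 22 Pax9, 17 Nkx2-3, 9 Pax1, 1 Hhex and 1 T.

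The neuronal-like group itself differed in composition between Rep1 and Rep2, which differ in both kit and embryo pool. Its 7 neuronal markers summed to 1353 and 1419 CPM in Rep1 but to 4147 and 4741 CPM in Rep2, while its 5 neural tube markers (Sox1, Sox2, Olig2, Pax6 and Nkx6-1) summed to 156 and 228 CPM in Rep1 and to 61.1 and 48.0 CPM in Rep2. Gli2 in this group was likewise higher in Rep1, at 50.2 and 48.8 CPM in Rep1 and 19.1 and 13.4 CPM in Rep2. The part of this difference in the Shh and Gli2 values of neuronal-like cells was not tested.

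The genes whose levels across the 21 groups were most like that of Shh, by the correlation of log2(CPM + 5) averaged over libraries, were Foxa2 (r = 0.99), 9030622O22Rik, Pkd1l1, Tacr1 and Nkx2-9, of 12959 genes compared. The points share libraries and depth, and the likeness carries no test.

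Ptch1, Gli1 and Hhip were highest in other cells than the ligand. Ptch1, the receptor that responding cells raise, was highest in the mesenchyme-like (Adamtsl1 Tagln) group, at 608.6 CPM in cHet Rep1, 624.0 in cKO Rep1, 902.8 in cHet Rep2 and 953.5 in cKO Rep2. The pSHF-like group followed with 355.4, 287.9, 639.7 and 552.5 CPM, and the pharyngeal endoderm-like group with 206.3, 197.1, 382.8 and 337.6 CPM. These 3 groups held ranks 1 to 3 in that order in all 4 libraries, although their ranges over the 4 libraries overlapped, with Rep2 above Rep1 in each. Ptch1 was lowest in endothelium-like (Emcn Cdh5) cells, at 23.3, 24.9, 47.0 and 42.9 CPM.

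Gli1, the GLI gene that is itself switched on by the pathway, had its highest means in the same pair of groups. It was counted at 18.2, 16.1, 23.9 and 20.2 CPM in mesenchyme-like (Adamtsl1 Tagln) cells and at 13.8, 13.8, 26.5 and 20.7 CPM in pSHF-like cells, and the order of these 2 groups differed between Rep1 and Rep2. The mesenchyme-like (Kcnmb2 Cyp26a1), unnamed (Pcdh9 Galntl6) and unnamed (Vtn Cthrc1) groups came next, with means of 15.0 ± 4.8, 14.5 ± 3.6 and 13.3 ± 2.8 CPM (SD, n = 4). In cKO Rep1 the mesenchyme-like (Kcnmb2 Cyp26a1) group stood above the pSHF-like group. Within libraries the first of these 3 was above the next in 3 of 4 and the unnamed (Pcdh9 Galntl6) group above the unnamed (Vtn Cthrc1) group in 4 of 4. Endothelium-like (Emcn Cdh5) cells held 2, 1, 2 and 0 Gli1 UMIs, at a mean of 0.16 ± 0.11 CPM.

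Hhip, a membrane-bound and secreted protein that binds and sequesters Hedgehog ligand, had the same 2 leading groups. pSHF-like cells held 59.4, 57.6, 103.7 and 126.8 CPM, and mesenchyme-like (Adamtsl1 Tagln) cells 62.5, 68.5, 88.9 and 110.7 CPM. The next group, branchiomeric muscle (BrM)-like (Emx2 Vgll3), lay below both in every library, at 23.7, 29.5, 43.1 and 46.4 CPM, and its range did not overlap with theirs. Hhip thus separated from Gli1 below these, where the next 3 groups for Hhip were both BrM-like groups and the endoderm-like group and for Gli1 were mesenchyme-like or unnamed groups.

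**Figure D1:**
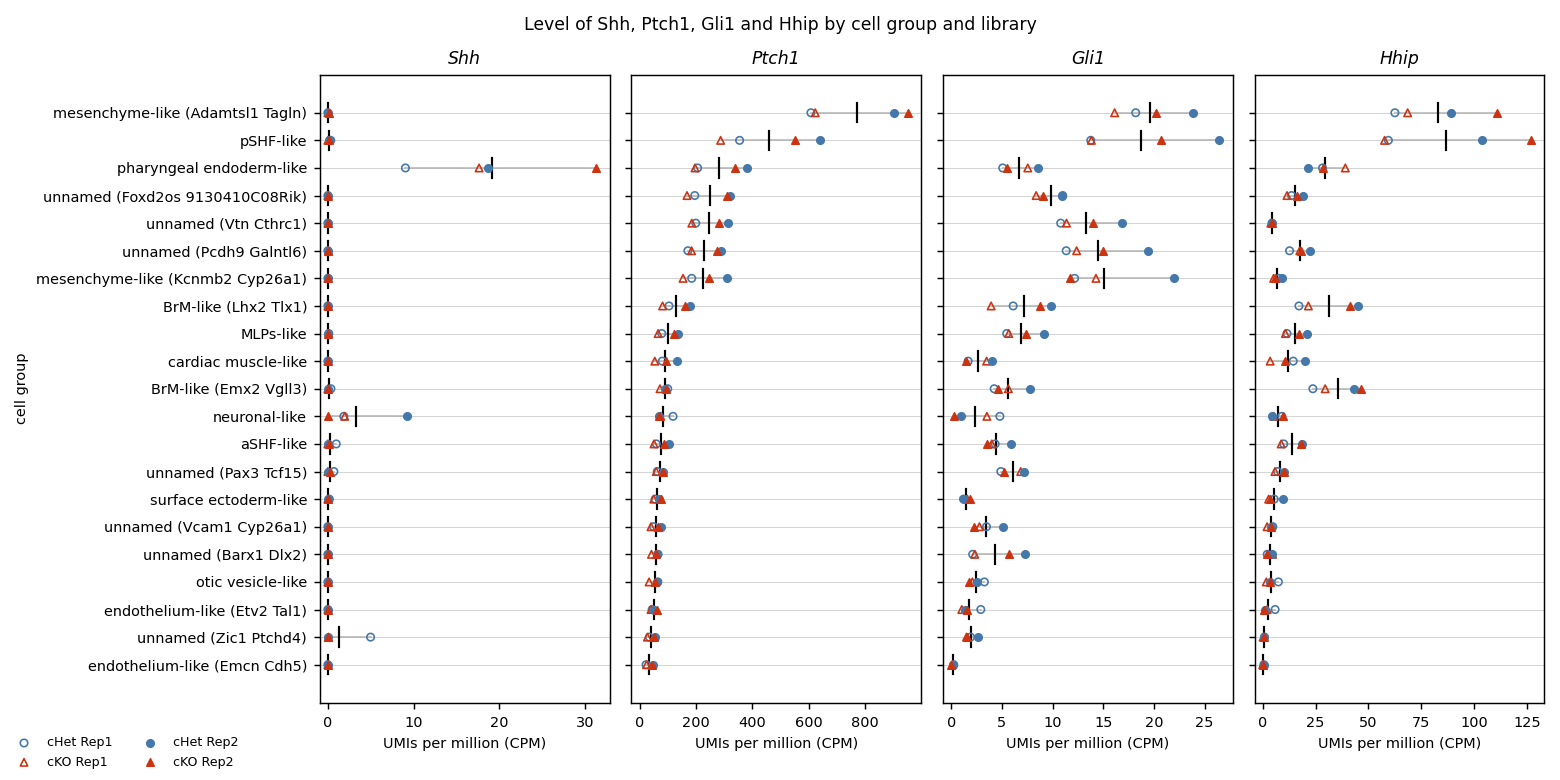
Level of Shh, Ptch1, Gli1 and Hhip (x axis, CPM, linear) in each of the 21 cell groups (y axis, ordered by mean Ptch1), with 1 point per library (circles cHet, triangles cKO, open Rep1, filled Rep2), a bar at the mean of the 4 and a grey line over their range. Shh is highest in the pharyngeal endoderm-like row in every library, whereas Ptch1, Gli1 and Hhip are highest in the mesenchyme-like (Adamtsl1 Tagln) and pSHF-like rows. For Ptch1 the Rep2 points lie to the right of the Rep1 points in the leading rows.

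Over the 21 groups, mean levels of Ptch1 and Gli1 went together (r = 0.92, rho = 0.89 on log2(CPM + 5)), as did those of Ptch1 and Hhip (r = 0.79, rho = 0.83) and of Gli1 and Hhip (r = 0.70, rho = 0.72). For Shh the values were r = 0.19 and rho = 0.15 with Ptch1, -0.04 and 0.03 with Gli1, and 0.17 and 0.39 with Hhip. Of 12959 genes compared, Gli1 was the gene most like Ptch1, ahead of Gm43948, 1700018A04Rik, Gm26911 and Aco1. Ptch1 was in turn the gene most like Gli1, ahead of Nadk2, Scara3, Tut4 and Aco1. These are descriptions over groups that share libraries, and carry no test.

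The endoderm-like cells had the highest Shh level in every library and were also the third group for Ptch1, so they were split into cells with and without a Shh UMI. This comparison was added after it was seen where Shh was counted. The share of cells with a Shh UMI fell after thinning, so the cells without one can include cells whose Shh was missed. Median depth was similar on both sides, at 17808 against 19530 UMIs in cHet Rep1, 22412 against 22340 in cKO Rep1, 24765 against 22907 in cHet Rep2 and 18917 against 20371 in cKO Rep2. Ptch1 was 371.7 CPM in cells with Shh and 185.6 CPM in cells without in cHet Rep1, 232.4 and 190.5 in cKO Rep1, 522.2 and 335.0 in cHet Rep2, and 465.5 and 299.3 in cKO Rep2. It was higher beside Shh in 4 of 4 libraries, by 0.62 ± 0.09 on the log2 scale (adjusted p = 1.02e-05, edgeR quasi-likelihood test with a library block), where 4.54% of 10541 genes were called. The pSHF marker Foxf1 was at 66.2 CPM in the Shh cells of cHet Rep1, against 0.64 CPM in the other cells and at most 0.69 CPM in the Shh cells of the other libraries, and Ptch1 was 0.57 higher with Shh without that library (adjusted p = 0.000143). Hhip rose in the same way in 4 of 4 libraries, by 0.92 ± 0.20 (adjusted p = 0.00218), from 26.7, 29.1, 16.5 and 25.5 CPM without Shh to 40.7, 92.2, 36.2 and 37.7 CPM with it, and its call was lost without cHet Rep2 (0.86, adjusted p = 0.051). Gli3, whose protein is the main repressor of the pathway, fell in 4 of 4, by 0.72 ± 0.10 (adjusted p = 1.79e-06), from 307.7, 392.9, 327.2 and 330.1 CPM to 168.0, 308.5, 196.4 and 189.2 CPM.

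Gli1 was not called in that split. It was 15.3 CPM with Shh and 3.8 without in cHet Rep1, but 4.0 and 8.2 in cKO Rep1, 10.9 and 7.8 in cHet Rep2 and 5.5 and 5.5 in cKO Rep2, a difference of 0.31 ± 0.46 (adjusted p = 0.897). The direction differed between libraries, and the lack of a call does not show that the levels were equal. Gas1 was lower with Shh in 3 of 4 libraries, -0.73 ± 0.23 (adjusted p = 0.0555), and was called without cKO Rep1 (-1.06, adjusted p = 0.000387) and with all genes of at least 1 count (-0.77, adjusted p = 0.0132), but stood at -0.31 without cKO Rep2 (adjusted p = 1) and -0.63 without cHet Rep2 (adjusted p = 0.405). Smo, Gli2 and Boc differed by 0.04 ± 0.15, -0.21 ± 0.17 and -0.05 ± 0.49, none called.

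Of the other pathway genes, 6 were called in that split, where 4.54% of all 10541 genes tested were called. Foxa2 (1.81 ± 0.20), the cyclin gene Ccnd2 (0.57 ± 0.10), Scube3 (0.88 ± 0.25), whose product carries released ligand, and Lrp2 (0.57 ± 0.17), an endocytic coreceptor, were called higher with Shh, although Lrp2 was level in cHet Rep2 (86.9 and 86.9 CPM) and Scube3 was lower with Shh in cKO Rep1 (16.0 against 17.9 CPM). Ccnd1 (-0.48 ± 0.12) and Tbx1 (-0.62 ± 0.17) were lower, although Tbx1 was higher beside Shh in cHet Rep1 (101.8 against 90.9 CPM). Among the endoderm markers, Foxa1 was higher with Shh (1.03 ± 0.18), and Pax9 (-0.99 ± 0.12) and Pax1 (-0.88 ± 0.19), genes of the pharyngeal pouches, were lower. Fgf8, also a pouch gene and the one with the smallest p, differed by -3.04 ± 0.17 on the log2 scale, and was singled out after its value was seen. With no library block only 32 genes were called in place of 479, and Ptch1, Hhip and Gli3 were not among them. Leaving out cKO Rep2, the library with most Shh cells, left 152 genes called, and leaving out cHet Rep2 left 295.

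**Figure D2:**
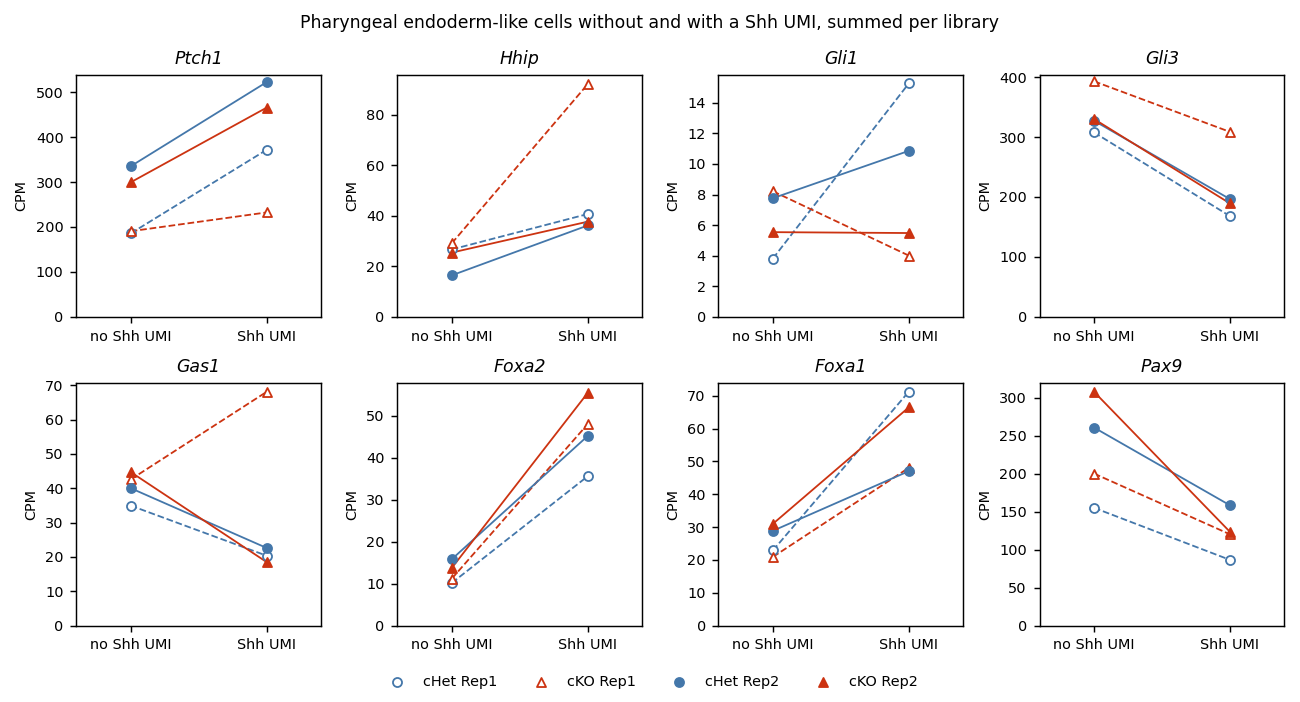
Level (y axis, CPM, linear from 0) of 8 genes in the summed pharyngeal endoderm-like cells without and with a Shh UMI (x axis), with each line joining the 2 sums of 1 library (circles cHet, triangles cKO, open Rep1, filled Rep2). Ptch1, Hhip, Foxa2 and Foxa1 rise and Gli3 and Pax9 fall in all 4 libraries, while Gli1 and Gas1 take both directions.

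The coreceptors had other patterns than the response genes, whereas the signal transducer gene Smo went partly with them. Smo was even, with means between 44.1 ± 7.9 CPM in endothelium-like (Emcn Cdh5) cells and 90.7 ± 19.4 CPM in mesenchyme-like (Kcnmb2 Cyp26a1) cells (SD, n = 4). Over the 21 groups its correlation was r = 0.68 (rho = 0.73) with Gli1 and r = 0.53 (rho = 0.55) with Ptch1. Gas1, a membrane-anchored coreceptor, was highest in otic vesicle-like cells (261.3, 400.0, 271.4 and 406.4 CPM) and in the unnamed (Zic1 Ptchd4) group (207.6, 275.5, 283.5 and 334.0 CPM), which overlapped. It was near its lowest where Ptch1 was highest, at 11.9, 5.3, 18.1 and 13.1 CPM in mesenchyme-like (Adamtsl1 Tagln) cells, and only endothelium-like (Emcn Cdh5) cells had less, with 5.4, 3.3, 7.5 and 8.8 CPM.

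Boc, an immunoglobulin-family coreceptor, led in the unnamed (Pax3 Tcf15) group with 72.8, 63.6, 112.7 and 115.6 CPM and in cells like multilineage progenitors (MLPs) with 49.0, 54.0, 64.8 and 74.0 CPM. The mesenchyme-like (Adamtsl1 Tagln) cells had the lowest mean Boc level, at 6.5, 3.1, 7.5 and 3.1 CPM. They were below endothelium-like (Emcn Cdh5) cells in 3 of 4 libraries, with overlapping ranges. Over the 21 groups, the correlation with Ptch1 was -0.47 (rho = -0.44) for Gas1 and -0.14 (rho = -0.04) for Boc.

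The levels of Gli1 and Gli3 over the 21 groups were unrelated (r = 0.03, rho = -0.02), but the group with the highest mean of Gli1 had the lowest of Gli3. Gli3 was lowest in mesenchyme-like (Adamtsl1 Tagln) cells, at 65.4, 49.4, 89.1 and 69.8 CPM, and its highest mean was in the endoderm-like group, at 292.2, 379.7, 293.8 and 297.6 CPM, not separable from the unnamed (Zic1 Ptchd4), unnamed (Pax3 Tcf15), otic vesicle-like and surface ectoderm-like groups. Gli2 in mesenchyme-like (Adamtsl1 Tagln) cells was counted at 68.3, 60.6, 79.9 and 68.1 CPM. Its highest mean was in cells like the anterior second heart field (aSHF), at 101.3 ± 10.5 CPM, and endothelium-like (Emcn Cdh5) cells were nearly without it, at 1.8 ± 0.4 CPM (SD, n = 4).

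**Figure D3:**
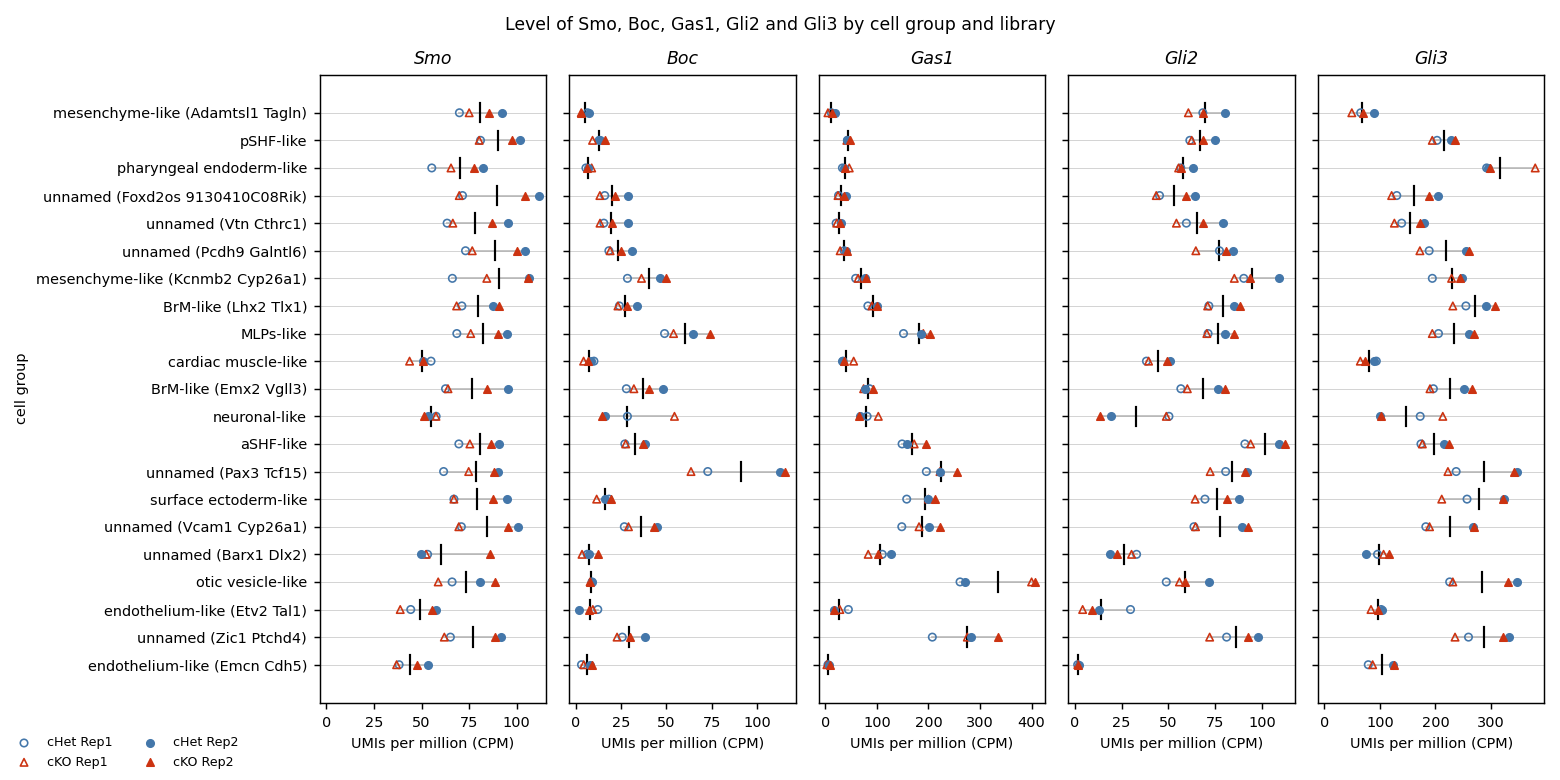
Level of Smo, Boc, Gas1, Gli2 and Gli3 (x axis, CPM, linear) in the same 21 cell groups and order as for Ptch1 (y axis), with 1 point per library, marked the same way, and a bar at the mean. In the top row, mesenchyme-like (Adamtsl1 Tagln), Boc, Gas1 and Gli3 are at or near their lowest, while Smo and Gli2 are not.

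Set against all other kept cells of the same library, 148 of the 189 tests of a member in a group passed an adjusted p of 0.05 (edgeR quasi-likelihood test, library block), 56 higher and 92 lower. Groups were formed from other genes of the same cells, so these calls describe the groups, and 40.8% of all gene-by-group tests were called (18.6% higher, 22.1% lower). Shh was higher in the endoderm-like group (6.74 ± 0.64, log2 ± SE) and in no other, and lower in 14. On a group's own counts, in the cKO against cHet fits, Shh passed the filter on low counts in only 2 groups. Its lower calls here rest on its counts in the other cells and restate where it was high. Ptch1 was higher in 7 groups and lower in 14. Gli1 was higher in 6 and lower in 8, Hhip in 5 and 13, Gas1 in 7 and 13, Boc in 7 and 12, Gli2 in 8 and 7, Gli3 in 9 and 7, and Smo in 6 and 4. In mesenchyme-like (Adamtsl1 Tagln) cells Ptch1 stood 2.49 ± 0.04 and Gli1 1.45 ± 0.09 above the rest, whereas Gas1 stood at -3.32 ± 0.13, Boc at -2.61 ± 0.14 and Gli3 at -1.69 ± 0.06.

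The comparison of cKO with cHet asked whether loss of Kmt2d in the Tbx1 lineage changed these genes, group by group and within each replicate. Of 189 tests of a member in a group, 160 passed the filter on low counts, and 5 were called at an adjusted p of 0.05 (edgeR quasi-likelihood test, replicate block, Benjamini-Hochberg over all genes of the group), 3 higher and 2 lower in cKO. Over all genes and groups 0.574% of tests were called (0.327% higher, 0.247% lower). With DESeq2's size factors in edgeR the members' calls were 3 higher and 0 lower. The DESeq2 test called 0 members (9 at an unadjusted p under 0.05), as did edgeR with no replicate block (4 at an unadjusted p under 0.05). Over all genes, DESeq2 called 124 of 382421 tests and edgeR with no block 0 of 262435. Fits that left out 1 library also had no block. The difference in level between Rep1 and Rep2 then enters the genotype difference. Neither a lost call nor a changed value in them could therefore show dependence on that library. Summed over all kept cells no gene of 20126 was called by edgeR, and 1139 had an unadjusted p under 0.05. DESeq2 called 65 genes, and edgeR called 91 with all genes of at least 1 count, 11 after thinning and 4 with doublets kept, with no member among any of these.

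Gas1 was the coreceptor that rose. In otic vesicle-like cells it went from 261.3 to 400.0 CPM in Rep1 and from 271.4 to 406.4 CPM in Rep2. Both cKO libraries lay above both cHet libraries, and the log2 fold change was 0.59 ± 0.08 (adjusted p = 0.0462, 0.62 in Rep1 and 0.59 in Rep2), in a group where 0.0631% of genes were called. The 7 otic vesicle markers summed to 472 and 471 CPM in Rep1 and 676 and 737 CPM in Rep2 (cHet and cKO) with none at 0, and 8 mesenchyme markers to 270 and 214 CPM and to 132 and 123 CPM, also with none at 0. The 7 surface ectoderm markers summed to 55.4 and 31.1 CPM in Rep1 and 53.0 and 49.2 CPM in Rep2 with Grhl3 at 0, and the 7 neuronal markers to 14.8 and 10.5 CPM and to 39.5 and 39.8 CPM with none at 0. The part of these in the result was not tested.

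In the unnamed (Zic1 Ptchd4) group Gas1 rose from 207.6 to 275.5 CPM in Rep1 and from 283.5 to 334.0 CPM in Rep2, by 0.34 ± 0.06 (adjusted p = 0.00601, 0.44 and 0.27), where 0.502% of genes were called. In the unnamed (Vcam1 Cyp26a1) group it rose from 148.4 to 181.8 and from 200.2 to 223.3 CPM, by 0.24 ± 0.05 (adjusted p = 0.0181, 0.29 and 0.17), where 1.30% were called. This last call ended after thinning (0.23, adjusted p = 0.107) and with doublets kept (0.21, adjusted p = 0.257). In these 2 groups the cKO Rep1 level was below cHet Rep2, so the rise is seen within each kit and not across kits. Gas1 was higher in both replicates in 11 of 21 groups and lower in both in 4. Over all kept cells it was 97.8, 118.9, 117.5 and 135.4 CPM, a difference of 0.27 ± 0.05 that was not called (adjusted p = 0.483).

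The mesenchyme-like (Adamtsl1 Tagln) cells held both lower calls, and 0.965% of the genes tested in them were called. Ptch1 was highest in these cells, but mean Boc and Gli3 were the lowest of the 21 groups. A Boc UMI was in 4.35% to 12.61% of these cells per library, against 6.16% to 11.95% of endothelium-like (Emcn Cdh5) cells. For Gas1 the shares were 7.77% to 16.51% and 7.53% to 11.76%. Gli3 was in 47.57% to 61.24% of the mesenchyme-like cells. The part of RNA from other cells in these counts was not tested. Boc went from 6.5 to 3.1 CPM in Rep1 (29 and 20 UMIs) and from 7.5 to 3.1 CPM in Rep2 (70 and 31 UMIs). Both cKO libraries were below both cHet libraries, with a log2 fold change of -1.18 ± 0.27 (adjusted p = 0.0372, -1.02 and -1.17). With cells thinned it was -2.02 and not called (adjusted p = 0.105). Gli3 went from 65.4 to 49.4 CPM and from 89.1 to 69.8 CPM, by -0.37 ± 0.08 (adjusted p = 0.0323, -0.41 and -0.34), and here the genotypes overlapped across the kits. The Gli3 call ended after thinning (-0.34, adjusted p = 0.591) and with doublets kept (-0.24, adjusted p = 0.0963). Gas1, called higher in 3 other groups, was 11.9 and 5.3 CPM in Rep1 and 18.1 and 13.1 CPM in Rep2 in these cells, a difference of -0.67 ± 0.19 that was not called (adjusted p = 0.128). That difference ran from -0.32 without cKO Rep1 to -1.36 without cKO Rep2, and it was called with all genes of at least 1 count (adjusted p = 0.0147) and with doublets kept (0.0461). The response genes Ptch1 (0.06 ± 0.07), Gli1 (-0.21 ± 0.14) and Hhip (0.25 ± 0.08, adjusted p = 0.268) were not called either, and Hhip ran from 0.01 without cKO Rep2 to 0.42 without cKO Rep1.

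Whether the genotype effect in mesenchyme-like (Adamtsl1 Tagln) cells differed from that in the other cells was tested directly, with terms for library, group and group by replicate. It did for 5 of the 9 members, below for Boc (-1.14 ± 0.25), Gas1 (-0.89 ± 0.14) and Gli3 (-0.39 ± 0.07) and above for Hhip (0.37 ± 0.09) and Ptch1 (0.21 ± 0.04), where 0.538% of 18790 genes were called. This fit leaves 1 residual degree of freedom per gene for the genotype contrast before the spread is shared across genes. Over the 21 groups the difference was called for 14 of 189 member tests, with 0.567% of all tests called. In a fit with no group by replicate term 3 were called. The 9 cardiac muscle markers in these cells summed to 519 and 432 CPM (cHet and cKO, Rep1) and to 1458 and 753 CPM (Rep2) with Nppa at 0, the 8 mesenchyme markers to 980, 1009, 1314 and 1345 CPM (cHet Rep1, cKO Rep1, cHet Rep2, cKO Rep2), and the 7 pSHF markers to 39.6 and 36.3 and to 42.4 and 55.5 CPM with none at 0. Their part in the differences was not tested.

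**Figure D4:**
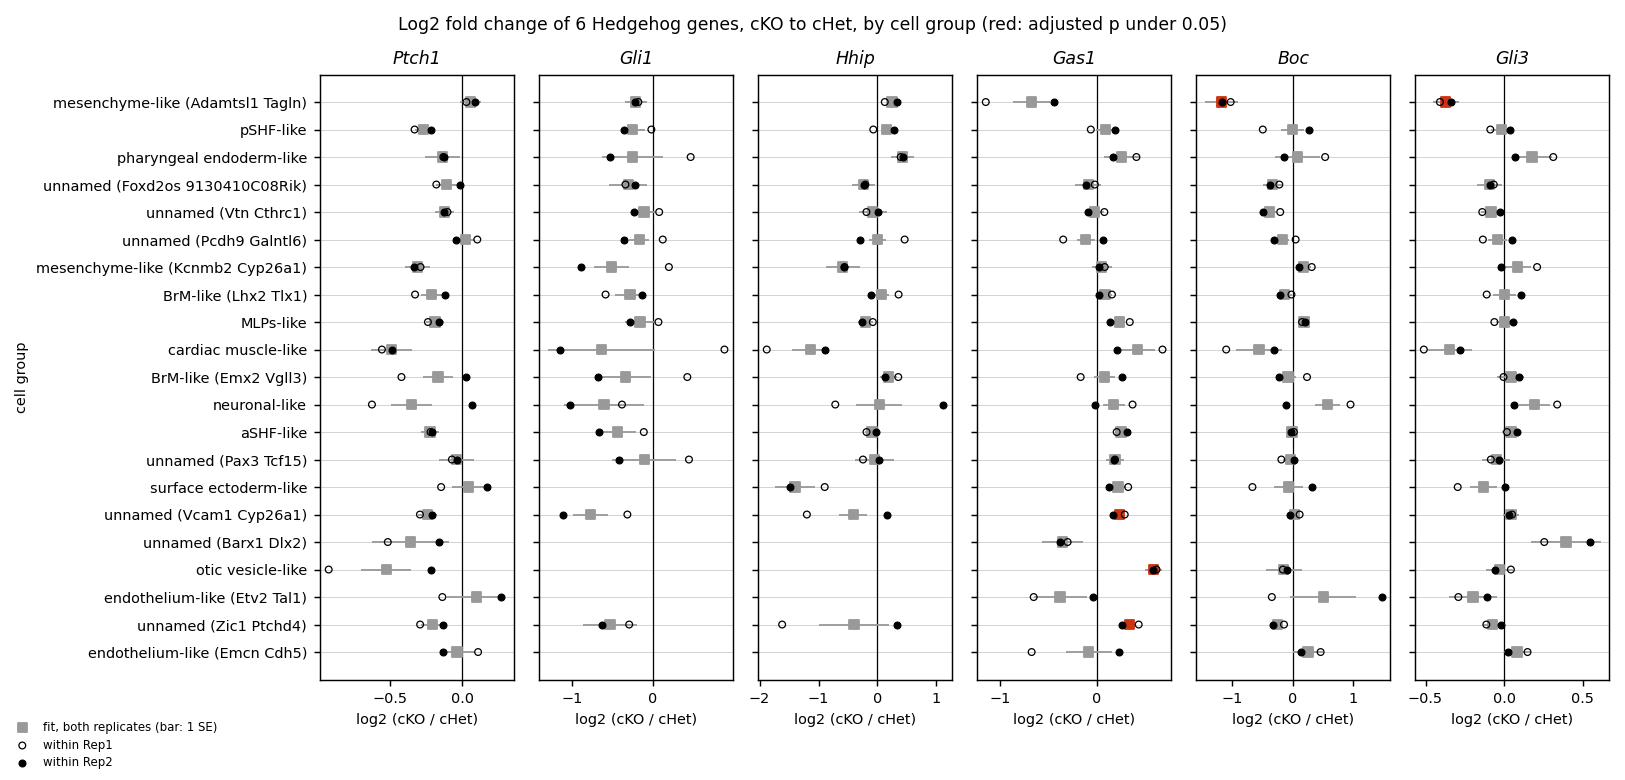
Log2 fold change of cKO to cHet (x axis) of 6 members in each of the 21 groups (y axis, ordered by mean Ptch1), with squares for the fit over both replicates (bars 1 SE, red where adjusted p was under 0.05) and circles for Rep1 (open) and Rep2 (filled) alone, and no symbol where a gene did not pass the filter on low counts. Red squares mark Gas1 in 3 groups to the right of 0 and Boc and Gli3 in mesenchyme-like (Adamtsl1 Tagln) cells to the left, and most Ptch1 and all Gli1 squares lie left of 0.

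Ptch1 and Gli1 leaned towards lower levels in cKO without any call in the edgeR fit above. Over all kept cells Gli1 was 6.12 and 6.38 CPM in Rep1 and 10.4 and 7.57 CPM in Rep2 (cHet and cKO), and Ptch1 125.1 and 118.1 CPM in Rep1 and 216.8 and 200.6 CPM in Rep2. Ptch1 was lower in cKO in both replicates in 14 of 21 groups and higher in both in 1, with a median log2 fold change of -0.19. In pSHF-like cells it was 355.4 and 287.9 CPM in Rep1 and 639.7 and 552.5 CPM in Rep2 (cHet and cKO), a difference of -0.27 ± 0.06 (adjusted p = 0.0962, -0.33 and -0.21 within replicates). It was called there with all genes of at least 1 count (adjusted p = 0.00876), with doublets kept (0.032) and with 1000 genes per cell (0.0152). It was -0.20 after thinning (adjusted p = 0.816). Its sign turned without cKO Rep1 (0.02) and without cHet Rep2 (0.01), in fits with no block that take in the difference between Rep1 and Rep2. In the unnamed (Vcam1 Cyp26a1) group it differed by -0.24 ± 0.06 (adjusted p = 0.0658), and was called with all genes of at least 1 count (adjusted p = 0.0263) and with 1000 genes per cell (0.0187), but was -0.14 with doublets kept (0.581) and ran from -0.09 without cKO Rep1 to -0.42 without cKO Rep2. In cardiac muscle-like cells it differed by -0.49 ± 0.14 (adjusted p = 0.171), from -0.22 without cHet Rep2 to -0.79 without cKO Rep2. The lowest fitted value, -0.52, was in otic vesicle-like cells. Gli1 was below cHet in the fit in 16 of 16 groups tested but in both replicates in 8, with its furthest value in the unnamed (Vcam1 Cyp26a1) group (-0.77 ± 0.22, adjusted p = 0.0908), where those same 2 settings called it (-0.78 and -0.72).

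Counted over all members, 64 of 160 tests (40.0%) were lower in both replicates, against 24.8% of all gene-by-group tests, and 31 (19.4%) were higher in both, against 26.8%. For the other pathway genes these shares were 31.2% and 22.1%. The groups share libraries, so these counts are not independent and carry no test.

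Shh in the endoderm-like group was 9.0 and 17.6 CPM in Rep1 and 18.7 and 31.3 CPM in Rep2 (cHet and cKO). It was higher in cKO within each kit, but cKO Rep1 was below cHet Rep2, and the difference of 0.81 ± 0.23 was not called (adjusted p = 0.309, 0.86 and 0.77 within replicates). In fits with no block it was 0.47 without cKO Rep2 and 1.24 without cHet Rep2. In neuronal-like cells, the other group where Shh was tested, the difference was -1.77 ± 0.81 (adjusted p = 0.836), with 0.09 in Rep1 and -4.54 in Rep2, where cKO held no Shh UMI, and it was called, also lower, with all genes of at least 1 count. In the endoderm-like group the richest Shh cell held 3 and 14 UMIs in Rep1 and 7 and 20 in Rep2 (cHet and cKO). Without that cell the level was 7.35, 8.82, 17.1 and 28.1 CPM, still higher in cKO in both replicates. The Shh UMIs per cell with a Shh UMI were 1.60 and 3.50 in Rep1 and 1.84 and 2.71 in Rep2 (cHet and cKO). The share of such cells differed little between genotypes within a kit before thinning and was higher in cKO after it, as given above, and neither was tested. The endoderm-like group itself was 1.48% and 1.03% of kept cells in Rep1 and 1.99% and 2.63% in Rep2, in opposite directions.

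Smo and Gli2 were not called in any group by the edgeR fit above. Gli2 was called lower in the unnamed (Vtn Cthrc1) group after thinning (-0.45) and in endothelium-like (Etv2 Tal1) cells with all genes of at least 1 count (-1.37). The Smo log2 fold change ran from -0.12 to 0.39 with a median of -0.02, and it had the same sign in both replicates in only 7 of 21 groups. Gli2 was lower in both replicates in 12 groups and higher in both in 5, with a median of -0.10. Its lowest value, -1.37 ± 0.46 (adjusted p = 0.346) in endothelium-like (Etv2 Tal1) cells, rested on 61, 4, 28 and 18 UMIs. Hhip was lower in both replicates in 6 of 17 groups tested and higher in both in 3, from -1.40 in surface ectoderm-like cells to 0.42 ± 0.20 in the endoderm-like group (adjusted p = 1). In fits with no block the endoderm-like value was 0.03 without cKO Rep1, 0.05 without cHet Rep2, 0.80 without cHet Rep1 and 0.78 without cKO Rep2. It was 0.06 after thinning. With all genes of at least 1 count Hhip was called lower in surface ectoderm-like (-1.40) and cardiac muscle-like cells (-1.14).

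The other genes of the pathway were taken from a list of 49 that includes the 9 members. In the cKO against cHet comparison 5 of 664 tests of the other 40 genes were called, 1 higher and 4 lower, against 0.574% of all tests. Ccnd1, which drives entry into the cell cycle, was called higher in neuronal-like cells (0.49 ± 0.08, adjusted p = 0.0430) and lower in pSHF-like cells (-0.38 ± 0.07, adjusted p = 0.0101). Scube1 and Scube3, which encode secreted carriers of Hedgehog ligand, were lower in BrM-like (Emx2 Vgll3) cells, by -0.60 ± 0.14 (adjusted p = 0.00152) and -1.71 ± 0.48 (adjusted p = 0.0171), the latter with as few as 6 UMIs in a library, in a group where 357 of 12048 genes were called. Tbx1, the locus of the Cre, was lower in the unnamed (Vcam1 Cyp26a1) group, by -0.33 ± 0.07 (adjusted p = 0.00982). By role, the genes for regulators of GLI and SMO had 0 calls in 274 tests (median log2 fold change -0.01) and those for ciliary transport 0 in 125 (median 0.00). Those for ligand lipidation, release and carriage had 2 lower calls in 80 tests (median -0.09), and the genes known as targets in the foregut, heart field or face had 1 higher and 2 lower in 138 (median -0.05).

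The fitted log2 fold change was past 0.5 in size in 41 of the 664 tests of other pathway genes (6.17%), against 6.99% of all tests. Those named next were past it with equal signs in Rep1 and Rep2 and at least 20 UMIs in each library, and were not called. The coreceptor gene Cdon was at 0.57 ± 0.11 in otic vesicle-like cells, the group where Gas1 rose, with an adjusted p of 0.165. Lrp2 was at -0.60 ± 0.16 in the endoderm-like group (adjusted p = 0.209). The others were Mycn in neuronal-like (0.52), cardiac muscle-like (0.53) and unnamed (Barx1 Dlx2) cells (0.57), Foxc2 in endothelium-like (Etv2 Tal1) (0.54) and aSHF-like cells (-0.60), Scube1 in the unnamed (Pax3 Tcf15) group (-0.75), Scube3 in the unnamed (Zic1 Ptchd4) group (-0.59) and Tbx1 in neuronal-like cells (-0.53).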

How the data were processed

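The authors deposited, for each of the 4 libraries, whole-number counts of UMIs for every gene in every barcode, made with Cell Ranger, with the reads aligned to mm10 per the submitters' processing notes. The labels name Cell Ranger 8.0.1, whereas the file headers name 7.0.1 for Rep1 and 8.0.1 for Rep2. Values were not normalized, and all gene counts were used as deposited.

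The cell filter asked for 3000 genes or more, mitochondrial UMIs of 10% or less and haemoglobin UMIs of 5% or less. Scrublet's automatic cutoff marked between 0.015% and 1.74% of cells per library, so the highest-scoring share was removed at each kit's rate (0.8% per 1000 barcodes for Rep1 and 0.4% for Rep2), which took 4.03% to 5.78% of cells. Cells were clustered in scanpy 1.11.5 (Python 3.11.15) and leidenalg 0.10.2 on 2000 variable genes without the 49 genes of the Hedgehog list, with 30 principal components, 20 neighbours and a resolution of 0.8. A group took the name of the cell type with most markers that were 2-fold or more above the other cells and in at least 10% of the group's cells, if there were at least 3.

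Counts were summed per group and library (at least 36 cells in each), and the library was the replicate. Genotypes were compared with edgeR 4.0.16 (R 4.3.3), quasi-likelihood test, TMM, filterByExpr and a replicate block, with Benjamini-Hochberg adjustment over all genes of a group and a threshold of 0.05. Groups were compared with the other cells, and endoderm-like cells with Shh with those without, using a library block. Alternatives used DESeq2 1.42.0, other size factors, filters, blocks, cell filters, resolution, thinning and each library left out. The scripts were tested on simulated data. A replicate number marks a shared kit, and deviations of same-numbered libraries from their group means correlated at 0.815 over all cells, so the block was kept. With 2 libraries of pooled embryos per genotype, p-values cover only these libraries. With the replicate block, those for genotype rest on how far the cKO to cHet difference varied between Rep1 and Rep2. That leaves 1 residual degree of freedom per gene before the spread is shared across genes. With a library block they rest on how far the difference within a library varied between libraries. Intervals are 95% Wilson intervals and the limit for a count of 0 is 3 counts, both for counting error only.

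All 9 members are named, other pathway genes where they passed a threshold or, at most 3 per group, had a log2 fold change past 0.5 in size of equal sign in Rep1 and Rep2 and 20 UMIs or more in each library, and the 5 genes most like Shh, Ptch1 and Gli1. The members and lists were chosen with earlier results of these data known. One result on other genes of the list is not reported here.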

Additional observations from a re-analysis of the deposited data

Results flagged for a closer look

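For each gene of the Hedgehog list, the log2 fold change of cKO to cHet in a group was compared with that in the other cells of the same libraries (edgeR quasi-likelihood test, with terms for library, group and group by replicate). The 33 differences past an adjusted p of 0.05 are given here, those of members as the difference ± SE, and their causes were not tested. They include 14 of the 189 tests of a member, where 0.567% of all gene-by-group tests were called, and with no group by replicate term only 3 member tests were called.

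Of the members in mesenchyme-like (Adamtsl1 Tagln) cells, the genotype difference was below that of the other cells for the coreceptor genes Boc (-1.14 ± 0.25, adjusted p = 0.00222) and Gas1 (-0.89 ± 0.14, adjusted p = 5.77e-06) and for Gli3 (-0.39 ± 0.07, adjusted p = 2.67e-05). It was above for Hhip (0.37 ± 0.09, adjusted p = 0.0221) and Ptch1 (0.21 ± 0.04, adjusted p = 0.000262). Gas1 was also above in otic vesicle-like cells (0.39 ± 0.10, adjusted p = 0.0146) and below in the unnamed (Pcdh9 Galntl6) group (-0.37 ± 0.07, adjusted p = 0.000136). Ptch1 was below in pSHF-like cells (-0.24 ± 0.05, adjusted p = 0.00087) and in the unnamed (Vcam1 Cyp26a1) group (-0.16 ± 0.05, adjusted p = 0.0473).

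Some differences rested on few UMIs. That of Boc in mesenchyme-like (Adamtsl1 Tagln) cells was among them, with a Boc UMI in 116 of 1555 cells. Hhip was below in cardiac muscle-like cells (-1.14 ± 0.30, adjusted p = 0.0372) with 43 and 4 UMIs in Rep1 and 108 and 49 in Rep2 (cHet and cKO), and in surface ectoderm-like cells (-1.45 ± 0.32, adjusted p = 0.00418). Gli2 was below in endothelium-like (Etv2 Tal1) cells (-1.32 ± 0.34, adjusted p = 0.0112) with 61 and 4 UMIs in Rep1 and 28 and 18 in Rep2. Shh was above in the endoderm-like group (3.46 ± 0.74, adjusted p = 0.00285), against 0.81 within the group alone, with the UMIs outside it lying mostly in the cHet libraries. Shh was below in the unnamed (Zic1 Ptchd4) group (-6.09 ± 1.08, adjusted p = 0.00498), where 41 of its 44 UMIs in cHet Rep1 were in 1 cell. On that group's own counts Shh did not pass the filter on low counts, and it was tested here through the other cells.

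Of the other pathway genes, Ccnd1 differed in neuronal-like (0.58), pSHF-like (-0.39), unnamed (Vcam1 Cyp26a1) (-0.14) and unnamed (Zic1 Ptchd4) cells (-0.19), and Ccnd2 in neuronal-like cells (0.42). The coreceptor gene Cdon was above in otic vesicle-like cells (0.55), as Gas1 was, and below in BrM-like (Emx2 Vgll3) (-0.62), unnamed (Pcdh9 Galntl6) (-0.43) and unnamed (Vtn Cthrc1) cells (-0.47). Foxc2 was below in mesenchyme-like (Kcnmb2 Cyp26a1) (-0.47), neuronal-like (-1.71), otic vesicle-like (-2.27) and unnamed (Vcam1 Cyp26a1) cells (-0.50). Scube1 was below in BrM-like (Emx2 Vgll3) (-0.55), endothelium-like (Etv2 Tal1) (-1.46), otic vesicle-like (-1.56) and unnamed (Pax3 Tcf15) cells (-0.66). Tbx1 was below in the unnamed (Pax3 Tcf15) (-1.72) and unnamed (Vcam1 Cyp26a1) groups (-0.29).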

How the results depend on the processing

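The 5 member calls between genotypes depended on the processing. Their number was 0 with DESeq2, 0 with no replicate block, 3 with DESeq2's size factors (RLE) and 17 with all genes of at least 1 count. It was 3 with cells thinned to 5000 UMIs and 3 at a resolution of 0.4. Over all gene-by-group tests the calls were 1506 of 262435 in the main fit, 124 of 382421 with DESeq2 and 0 of 262435 with no replicate block. They were 1296 of 262435 with RLE, 3417 of 432200 with all genes of at least 1 count, 644 of 202696 after thinning and 916 of 197525 at a resolution of 0.4. The 0 with no replicate block is therefore not particular to the members. Of the 5 calls, RLE kept the 3 of Gas1 and thinning 2 of them. Doublets kept (5 calls) shared 3, losing Gas1 in the unnamed (Vcam1 Cyp26a1) group (0.21, adjusted p = 0.257) and Gli3 in mesenchyme-like (Adamtsl1 Tagln) cells (-0.24, adjusted p = 0.0963), and 1000 genes per cell (7 calls) and resolution 0.4 shared the 3 of Gas1, with no group matched to mesenchyme-like (Adamtsl1 Tagln), so that Boc and Gli3 were not tested there. The 1 call without cHet Rep2 was Shh in the unnamed (Zic1 Ptchd4) group. With DESeq2 the log2 fold changes of the 5 were 0.25, 0.35 and 0.61 for Gas1 in the unnamed (Vcam1 Cyp26a1), unnamed (Zic1 Ptchd4) and otic vesicle-like groups, -1.16 for Boc and -0.37 for Gli3. The 5 calls of other pathway genes (1 higher and 4 lower) became 0 with DESeq2, 0 with no replicate block and 14 with all genes of at least 1 count. They became 2 higher and 0 lower after thinning, and 0 higher and 7 lower with 1000 genes per cell. Fits that left out a library had no block, since 3 libraries with it leave no residual degrees of freedom, so they changed 2 choices together. The 14 differences of the genotype effect became 3 with no group by replicate term. Calls of members against the other cells (148) stayed within 1.5 times under the alternatives run. The share of endoderm-like cells with a Shh UMI became 3.45%, 6.15%, 8.06% and 11.5% after thinning (cHet Rep1, cKO Rep1, cHet Rep2, cKO Rep2). In the endoderm split, chosen after seeing the data, 479 calls became 32 with no library block and 152 to 552 with a library left out. Small uncalled genotype differences changed sign when a library was left out. Over these fits Ptch1 ran from -0.12 to 0.22 in mesenchyme-like (Adamtsl1 Tagln), -0.59 to 0.02 in pSHF-like, -0.41 to 0.15 in endoderm-like, -0.46 to 0.00 in aSHF-like and -0.48 to 0.05 in MLPs-like cells. In pSHF-like cells Gli1 ran from -0.46 to 0.12 and Hhip from -0.31 to 0.50, with Hhip at -0.07 within Rep1. The fits with a library left out take in the difference in level between Rep1 and Rep2, whose part in these changes was not tested separately.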

Other observations

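The other Hedgehog ligands were rare. Ihh had 31 UMIs in kept cells. Of 50 Dhh UMIs, 44 (88.0%) were in endothelium-like (Emcn Cdh5) cells, at 0.77 and 0.15 CPM in Rep1 and 2.23 and 1.83 CPM in Rep2 (cHet and cKO), the cells in which Ptch1 and Gli1 were lowest. Foxf1, a forkhead gene known as a target in foregut mesenchyme, had 69.0% of its UMIs in pSHF-like cells, but it was also a marker used to name that group. Of the Foxl1 UMIs 45.4%, and of the Foxf2 UMIs 32.0%, were in mesenchyme-like (Adamtsl1 Tagln) cells. Scube2, which encodes a secreted carrier of the ligand, had 234 of 407 UMIs (57.5%) in neuronal-like cells, and the share fell from 73.7% and 80.7% in the Rep1 libraries to 8.22% and 0.0% in the Rep2 libraries (cHet and cKO).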
